A study of Mus musculus with 2 samples.

Results

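C1q-high macrophages were followed in single-cell RNA profiles of CD45-positive immune cells from mouse liver tumours. A cell barcode was counted as a member when it had at least 200 genes and at most 10% of its unique molecular identifiers (UMIs, 1 per captured transcript) from mitochondrial genes, at least 5 UMIs of Lyz2, at least 15 UMIs summed over C1qa, C1qb and C1qc, at most 1 UMI of Cxcl9, and none of Fscn1, Cd3d, Cd3e or Cd3g. This selected 1687 of the 19580 cells that passed the filter on genes and mitochondrial UMIs: 790 of 10014 in mice given anti-PD-1 and 897 of 9566 in mice given the isotype. The tumours were orthotopic Hepa1-6 hepatomas, grown in the liver of wild-type C57/BL6 mice. The mice received an antibody against PD-1, an inhibitory receptor of T cells, or a control antibody that the labels call isotype and the series' design text IgG. Live (7-AAD-negative) CD45-positive cells were enriched on beads, sorted and run as 1 10x Genomics 3′ library per group. Both groups share the tumour line, host genotype and sort, and the sort leaves out tumour cells, hepatocytes and stroma. The sources used here do not give the number of mice per library or the dose and timing of the antibodies.

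C1q is the recognition unit of the classical complement pathway: it binds antibody complexes and dying cells and is assembled from A, B and C chains. Most of it is made by macrophages and dendritic cells rather than by hepatocytes. In tumours, macrophages rich in C1q and apolipoprotein E are usually described as mature cells that derive from monocytes or from resident macrophages, take up debris and present antigen. In liver the resident macrophage is the Kupffer cell.

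Each group is 1 library, so no test between the antibodies could be made and no p-value is given. Intervals are 95% intervals that cover counting error only, and differences between mice or between sequencing runs are not in them. The libraries held 72148493 UMIs over 10149 barcodes (anti-PD-1) and 67520433 UMIs over 9683 barcodes (isotype). Members were deeper than the libraries as a whole, with medians of 8377.5 and 9878 UMIs against 6396.5 and 6271 in all cells that passed the filter, and they held 2273 and 2441 genes at the median. The 2 libraries shared 140 barcodes, of which 10 and 15 were members. A doublet score above 0.25 was seen for 17 members (2.15%) and 14 members (1.56%), against 2.98% and 2.76% of all cells. These cells were kept.

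The members made up 7.89% of cells with anti-PD-1 (exact Clopper-Pearson interval 7.37 to 8.43) and 9.38% with isotype (8.80 to 9.98). The difference, anti-PD-1 minus isotype, was -1.49 percentage points (Newcombe interval -2.28 to -0.701). Nearly all of it came with the limit on Cxcl9, the interferon-induced chemokine that attracts activated T cells. Before that limit, C1q-high cells were 11.7% (1173 cells) and 11.8% (1131 cells), and their difference was -0.110 points (-1.01 to 0.793). Of these C1q-high cells, 383 (32.7%) with anti-PD-1 and 234 (20.7%) with isotype had at least 2 UMIs of Cxcl9 and were left out, a difference of 12.0 points (8.37 to 15.5). The share of all C1q-high cells was thus close in the 2 libraries, and it was their split by Cxcl9 that differed. Among cells with at least 5 UMIs of Lyz2, the lysozyme gene of myeloid cells, members made up 14.2% and 18.2%.

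**Figure D1:**
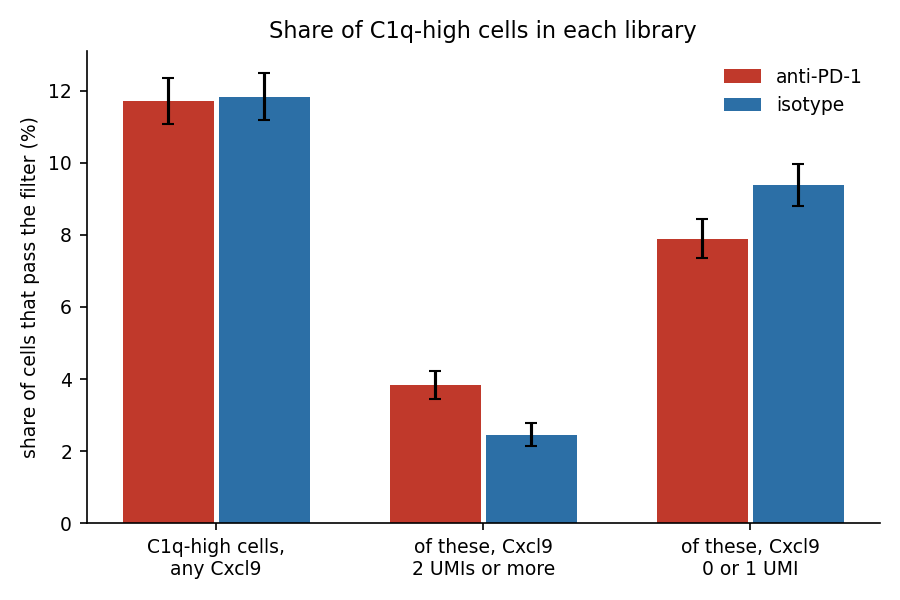
Share of filter-passing cells (y axis, percent) that were C1q-high with any Cxcl9 count, then split by Cxcl9 into 2 UMIs or more and 0 or 1 UMI (the members). Bars are the anti-PD-1 and isotype libraries, with exact 95% counting intervals. The bars at the left stand at 11.7% and 11.8%, those at the right at 7.89% and 9.38%.

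The limits of the rule fall within a continuous range of counts. Cells with a C1q sum of 15 or 16, just inside, numbered 49 and 51, and cells with 13 or 14, just outside, numbered 37 and 46. Apoe stood at 885 and 921 CPM just inside and at 625 and 447 CPM just outside, where CPM is the UMIs of a gene per 1000000 UMIs of the summed cells. For Cxcl9, 62 and 44 members had the 1 UMI allowed, and 39 and 36 cells with 2 UMIs were just outside. Gbp2, an interferon-induced GTPase, stood at 416 and 262 CPM in the members with 1 UMI of Cxcl9, at 325 and 424 CPM in the cells with 2, and at 226 and 96.1 CPM in the members with none.

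The C1q genes themselves chose the members, so their levels are a description. The sum over the 3 genes had a median of 37 UMIs per cell with anti-PD-1 (quartiles 24 and 61.75, highest 313) and 41 with isotype (26 and 71, highest 369). As a share of each cell's UMIs the medians were 0.491% and 0.445%. C1qb, the B chain, gave 50.1% and 48.6% of the C1q UMIs, C1qa 24.6% and 25.6%, and C1qc 25.2% and 25.8%. These are counts of transcript 3′ ends, which are not scaled by length, and how well each gene is captured was not measured. C1qb was found in every member, C1qc in 99.6% and 99.8%, and C1qa in 94.2% and 95.5%. Free RNA was read from other cells, chosen in part for Lyz2 counts below the minimum of members, with little or none in B and T cells. That choice can leave out cells with more free myeloid RNA, so these values may be too low. Of B cells, 0 of 42 and 0 of 42 had a C1q sum of at least 15, and of T cells 0 of 580 and 0 of 508. Of neutrophils, 4 of 1270 and 0 of 1357 did. A count of 0 allows a share of up to 7.14% in the B cells, which were few, and of up to 0.517% and 0.591% in the T cells. Summed C1q stood at 5313 and 5038 CPM in members and between 3.21 and 42.4 CPM in those other cells.

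The promoter of C1qb, on chromosome 4, is shown because the B chain was the C1q transcript detected in every member. The 250 bases before its start in RefSeq lie at chr4:136886201-136886450 (GRCm38.p6, minus strand). Capitals mark the letters GAGGAA, the core bound by PU.1, and TGCTGA, a half-site of MAF factors; both factors are myeloid regulators. The entries searched also held C1qc, whose window has GAGGAA and no TGCTGA. On either strand GAGGAA occurs in 23.3% and TGCTGA in 16.1% of the 32851 RefSeq promoter windows of this length, so these short matches describe letters only.
C1qb: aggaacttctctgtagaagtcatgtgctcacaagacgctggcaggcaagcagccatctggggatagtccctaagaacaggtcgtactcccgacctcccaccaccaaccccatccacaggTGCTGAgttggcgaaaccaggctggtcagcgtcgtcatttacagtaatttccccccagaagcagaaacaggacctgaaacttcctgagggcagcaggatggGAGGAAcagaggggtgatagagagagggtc

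The markers that the rule did not use included those of macrophages. Apoe, the lipid carrier of macrophages, was found in 79.9% of members with anti-PD-1 and 79.7% with isotype, at 1807 and 1720 CPM. Pf4, a chemokine known from platelets and also made by macrophages, was found in 33.0% and 36.6%, at 244 and 327 CPM. For these genes free RNA was read from the B cells, chosen by Cd79a and Cd79b and for little or no Lyz2, with every cell thinned to 3000 UMIs. Apoe was then found in 70.1% and 68.1% of members and in 33.3% and 41.9% of B cells, so part of its detection lay at the background, while Pf4 was found in 23.8% and 25.95% of members and in 0 and 6.45% of B cells. Of the 7 genes on the platelet list, Ppbp stood at 11.3 and 13.7 CPM, Itga2b had 2 UMIs in each library, Treml1 had 0 and 3 and Gp1ba 0 and 1, and Gp9, Gp1bb and Tubb1 had none. The part of platelet RNA in the level of Pf4 was not tested. Csf1r, the receptor for the macrophage growth factor CSF1, was found in 82.9% and 85.8% of members, Cd68 in 89.5% and 90.7%, and Cd14 in 94.6% and 96.2%. Thinned, Csf1r was found in 56.5% and 54.5% of members and in none of 33 and 31 B cells. Adgre1, which encodes F4/80, was found in 20.6% and 21.4%, at 32.5 and 31.3 CPM. The label of C1q-high macrophage thus held for Apoe, Csf1r, Cd68 and Cd14 in most members, and Pf4 marked a minority.

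The defining genes of Kupffer cells were scarce. Clec4f, which marks Kupffer cells, had 41 UMIs in each library, in 1 member of the anti-PD-1 library and 7 of the isotype library. Timd4 had 2 and 0 UMIs, Marco 3 and 0, and Vsig4 23 and 16. The list of scavenger genes of tissue-resident macrophages was mixed, and summed to 449 and 528 CPM against 239 and 238 CPM in cells that met the rule but for a C1q sum under 15. Mrc1, the mannose receptor CD206, was found in 33.0% and 45.5% of members and Selenop, which encodes a selenium carrier, in 40.1% and 41.1%. Folr2, in turn, was found in 1.90% and 2.68%, Lyve1 had 1 and 4 UMIs and Cd163 had 8 and 6. Id3, which is not confined to Kupffer cells, was found in 35.6% and 29.4%. The chemokine receptor of recruited monocytes, Ccr2, was found in 77.1% and 77.3% of members, at 285 and 274 CPM.

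The lists of other lineages differed in level. All 7 mast cell and basophil genes and the hepatocyte genes Alb, Apoa1, Ttr, Serpina1a, Serpina1c and Fgb had no UMI, and Afp, which Hepa1-6 hepatoma cells are known to make, had 3 and 10. Nearly all of the 355 and 387 CPM of the hepatocyte and hepatoma list was Trf, which encodes transferrin, at 354 and 386 CPM and found in 66.8% and 74.1% of members. Thinned, Trf was found in 48.2% and 50.2% of members and in 0 and 6.45% of B cells. The T cell list, without the Cd3 genes used by the rule, summed to 20.6 and 23.1 CPM, most of it Il7r. The NK cell list summed to 26.2 and 3.98 CPM, and the B and plasma cell list to 186 and 34.7 CPM, most of which with anti-PD-1 was Jchain, Igkc and Mzb1, each of them nearly all from 1 cell. The neutrophil list summed to 939.9 and 1145 CPM, with S100a8 found in 8.61% and 11.1% of members. By markers of neutrophils, T, NK or B cells, 175 members (22.2%) and 193 (21.5%) carried UMIs of another lineage. Leaving them out is among the alternatives given for the results, and their part in the differences between libraries was not tested beyond that.

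Next, members were set beside C1q-low cells, which met every other term of the rule but had a C1q sum under 15 (3776 and 3434 cells). Since C1q chose the members, these folds are a description. Of 10062 genes, 141 (1.4%) were at least 2-fold higher in members in both libraries and 275 (2.73%) at least 2-fold lower. Genes outside the rule with at least 20 CPM in members of both libraries were ranked by the smaller of the 2 folds. The highest was Mrc1, at 88.6 and 122 CPM in members against 13.4 and 18.1 CPM in C1q-low cells. The chemokine gene Ccl12 came next, at 218 and 215 CPM against 34.1 and 31.7. Ccl7, further down the 15 genes with the largest fold, stood at 513 and 433 CPM against 137 and 114. The products of Ccl12 and Ccl7 attract monocytes. Axl, a receptor for apoptotic cells, stood at 134 and 157 CPM against 34.98 and 38.5. Its relative Mertk, below that level, stood at 16.9 and 17.0 CPM against 2.38 and 2.31, a larger fold than that of Mrc1. Mgl2, a lectin of alternatively activated macrophages and some dendritic cells, stood at 157 and 324 CPM against 46.0 and 79.0. The remaining genes of the 15 with the largest fold at that level were Mmp13, a collagenase, Cd81, a tetraspanin, Slamf9, Rab3il1, Ptgs1, the cyclooxygenase COX-1, Cxcl16, the ligand of CXCR6, Plxdc2, Ccnd1, which encodes cyclin D1, and Apoe and Pf4. Apoe was 1.67 and 1.66 higher on the log2 scale, and Pf4 1.90 and 2.06.

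The genes lowest in members were granule genes of neutrophils and their precursors, among them Mpo, Elane, Ngp, Ltf, Camp and Lcn2. The C1q-low set was chosen on Lyz2 and also holds neutrophil transcripts, with S100a8 at 3008 and 6591 CPM there against 257 and 388 CPM in members. Monocyte genes were lower as well: 8 of 10 classical monocyte genes were at least 2-fold lower in members in both libraries. Ly6c2, the surface marker of classical monocytes, stood at 246 and 112 CPM in members, 969 and 761 CPM in C1q-low cells, and 1640 and 1452 CPM in those C1q-low cells with at least 2 UMIs of it. Ccr2 differed little, at 285 and 274 CPM against 314 and 291.

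Against the same C1q-low cells, MHC class II genes were 0.71 and 0.90 higher at the median of 10 genes on the log2 scale, and H2-Aa stood at 4669 and 5142 CPM in members against 2249 and 2270.2. Chemokine genes were 0.82 and 0.68 higher at the median of 19. Lysosomal genes hardly differed, at -0.0028 and 0.097 over 22 genes, and the interferon-gamma list stood at 0.010 and 0.11 over 27. The contrast with C1q-high cells left out for Cxcl9 was another one. Cxcl9 is itself an interferon-gamma target and split these sets, so the values are a description. In those cells the interferon-gamma list was higher by a median of 1.79 with anti-PD-1 and 1.62 with isotype (members over them, -1.79 and -1.62), while Pf4 stood at 32.02 and 54.3 CPM against 244 and 327 in members. Apoe stood there at 798 and 681 CPM, and Arg1, the arginase of wound-healing macrophages, at 508 and 835 CPM against 1508 and 1813 in members. Spp1, which encodes osteopontin, stood at 213 and 189 CPM against 822 and 826.

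**Figure D2:**
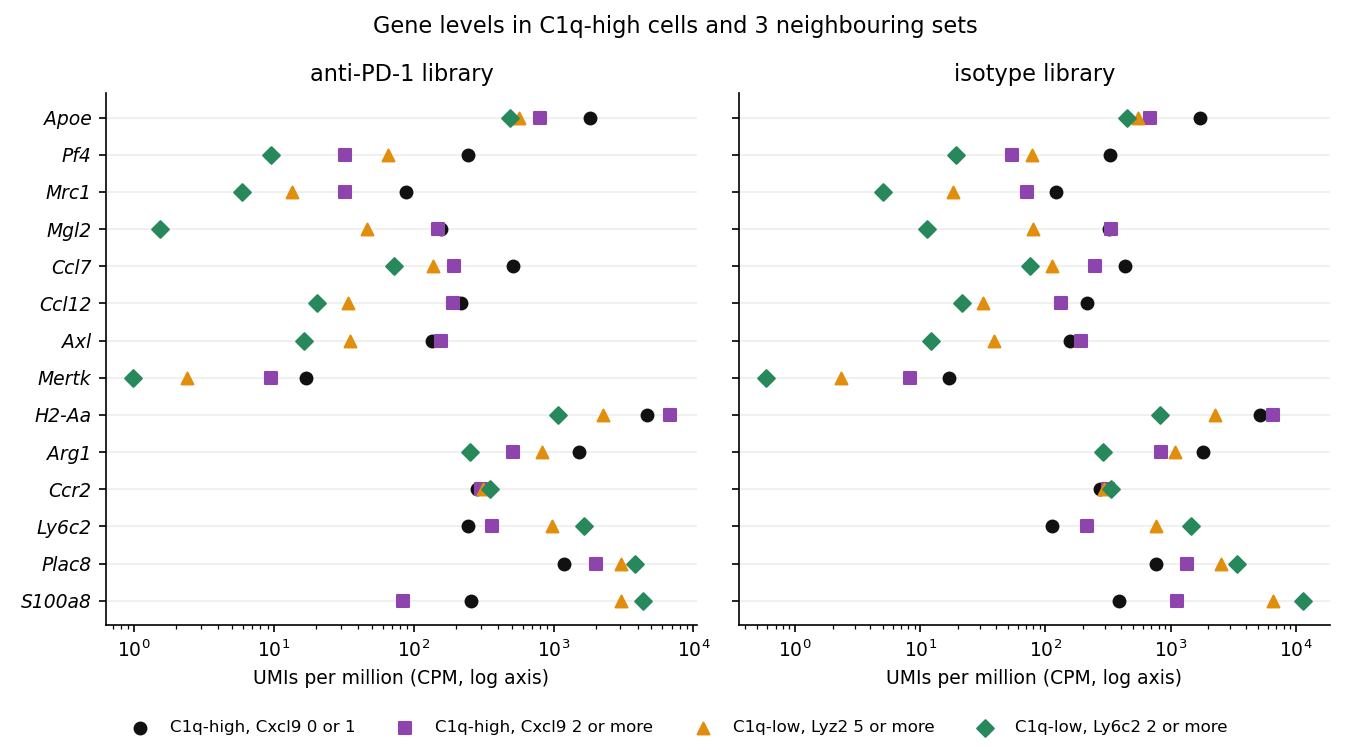
Summed level of 14 genes (x axis, CPM on a log axis) in C1q-high members and in 3 neighbouring sets of cells, for each library. Members lie at the right for Apoe, Pf4, Mrc1, Ccl7, Ccl12 and Mertk, and well left of the C1q-low cells for Ly6c2, Plac8 and S100a8.

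Members varied among themselves along the C1q share of their UMIs. They were split into terciles, 3 groups of equal size over both libraries, at 0.355% and 0.613% of UMIs, with 188 and 217 cells lying within 10% of a limit. The lowest tercile held 234 and 329 cells, the middle tercile 274 and 287, and the highest tercile 282 and 281. The lowest tercile was deeper, with medians of 10217.5 and 10723 UMIs against 7756 and 9057 in the highest, as a minimum in UMIs admits deeper cells at a lower share. The part of depth in what follows was not tested.

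Classical monocyte genes were lower and macrophage genes higher toward the top of that range. Of 10 classical monocyte genes, 9 were lower in the highest tercile than in the lowest in both libraries, with medians of -1.29 and -1.15 on the log2 scale. Over all 6514 genes, 29.8% were higher in both and 34.9% lower in both. Ly6c2 stood at 425, 164 and 129 CPM from the lowest to the highest tercile with anti-PD-1 and at 166, 100 and 50.5 with isotype. Vcan, the proteoglycan versican of monocytes, stood at 131, 67.5 and 38.1 CPM and at 95.6, 56.4 and 37.2. The anti-PD-1 library was the higher of the 2 in each tercile for both genes.

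Of 14 macrophage identity genes, 10 were higher in the highest tercile in both libraries and 2 lower, with medians of 0.89 and 0.73. Apoe stood at 862, 1307 and 3351 CPM and at 987, 1510 and 2962 CPM. Mrc1 stood at 38.7, 91.9 and 141 CPM and at 77.4, 121 and 186 CPM. Adgre1 stood at 21.5, 25.7 and 51.5 CPM and at 20.2, 30.6 and 47.6 CPM. These genes thus more than doubled over the range in both libraries, while Csf1r stayed between 269.8 and 344 CPM. Ms4a7, a membrane gene of mature macrophages, was 2.47 and 3.78 higher on the log2 scale in the highest tercile, and Ccl12 2.54 and 2.00 higher.

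Hypoxia and glycolysis genes ran the other way, with 15 of 17 lower in the highest tercile in both libraries and none higher, at medians of -0.30 and -0.42. Ero1l, an oxidoreductase that hypoxia induces, stood at 227, 196 and 123 CPM and at 286, 190 and 158. Spp1 stood at 1054, 748 and 637 CPM and at 1153, 723 and 478. Of 14 inflammatory genes 10 were lower in the highest tercile in both libraries, at medians of -0.16 and -0.25. Of 22 lysosomal genes 16 were higher in both, at medians of 0.22 and 0.12, and Lgmn, the protease legumain, stood at 495, 668 and 925 CPM and at 506, 671 and 862. Arg1 had no common direction, at 0.28 and -0.40.

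**Figure D3:**
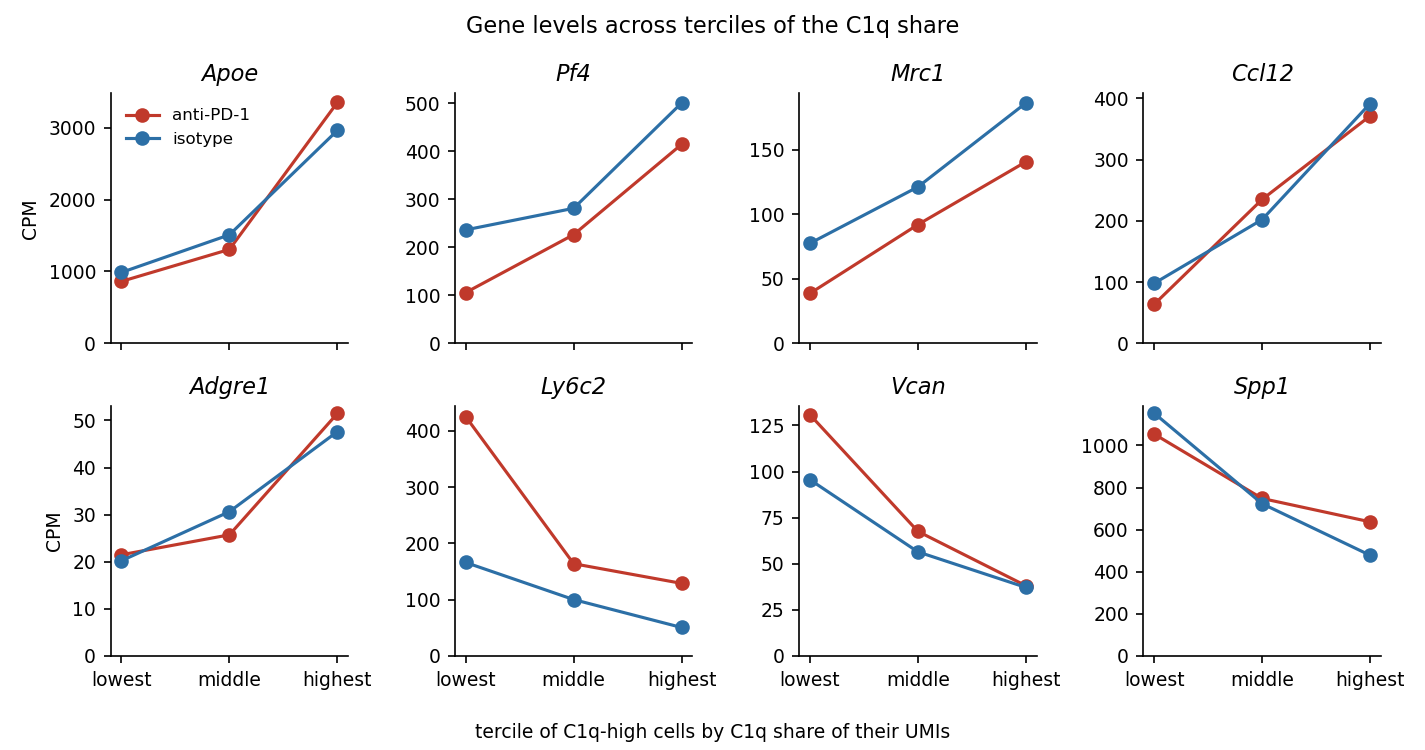
Summed level of 8 genes (y axis, CPM from 0) in members split into terciles by the C1q share of their UMIs (x axis), for the anti-PD-1 and isotype libraries. Apoe, Pf4, Mrc1, Ccl12 and Adgre1 stand higher in the highest tercile than in the lowest in both libraries, and Ly6c2, Vcan and Spp1 lower.

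Pairs of genes were counted in the same cells after each member was thinned to 3000 UMIs, which left 772 and 894 cells and left out 18 and 3. Pf4 was found in 29.8% and 34.5% of members with Apoe and in 9.96% and 7.72% of members without it. With Mrc1 it was found in 46.8% and 46.0%, and without in 18.8% and 19.6%. Mrc1 was found in 20.1% and 25.8% of members with Apoe and in 12.99% and 20.4% of those without, where the interval of the difference reached below 0 with isotype (-0.615 to 11.0 points). Arg1 was found in 40.6% and 44.3% of members with Ly6c2 and in 60.3% and 69.7% of those without, differences of -19.6 points (-27.97 to -10.9) and -25.3 points (-34.9 to -15.3). Detection of Pf4 thus went with that of Apoe and of Mrc1 in both libraries, and that of Arg1 was less frequent beside Ly6c2.

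The last question is how members differed between the anti-PD-1 and isotype libraries. In the anti-PD-1 library they had more transcripts of most interferon-induced, inflammatory and monocyte genes listed, and fewer of Mgl2, Mmp12, Ccl24, Mrc1 and Arg1. Genes of the lysosome stood close to the same level at the median, and the lipid-associated macrophage list slightly lower at its median. Ratios are log2 values of the anti-PD-1 level over the isotype level. Over 9025 genes with at least 50 UMIs the median ratio was 0.061, and 266 genes (2.95%) were at least 1.5-fold higher and 160 (1.77%) at least 1.5-fold lower. The counting interval lay above 0 for 1346 genes (14.9%) and below 0 for 529 (5.86%). Scaling by TMM moved every ratio by -0.062 and by median of ratios by -0.061. In bulk sums of this kind, more cells with a transcript and more transcript per cell cannot be told apart, so shares of cells are given beside the levels.

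Of the 18 lists of cell programmes, the interferon-gamma response had the highest median ratio, just above that of the cell cycle list at 0.56. The B and plasma cell list stood higher, at 1.49 over 6 genes, carried by Jchain, Igkc and Mzb1. Of 27 measured interferon-gamma genes, 13 were at least 1.5-fold higher and none lower, 24 had an interval above 0, and the median ratio was 0.58. Gbp2 stood at 242 CPM with anti-PD-1 and 104 CPM with isotype, a ratio of 1.22 (1.10 to 1.33), and was found in 32.3% and 28.1% of members, or 22.5% and 15.7% of thinned members. Igtp, an immunity-related GTPase of the group that acts on vacuoles of intracellular pathogens, stood at 22.3 and 9.85 CPM (1.18, 0.80 to 1.56). Gbp5, which promotes inflammasome assembly, stood at 32.2 and 15.5 CPM (1.05, 0.75 to 1.36). Irf1, a transcription factor of the pathway, was higher too, at 142 and 84.0 CPM (0.76, 0.62 to 0.89). Cxcl10, a chemokine that shares the receptor of Cxcl9 but was not in the rule, stood at 435 and 252 CPM (0.79, 0.71 to 0.87). Ciita, the activator of MHC class II genes, was the only measured gene of the list below 0, at 28.5 and 29.4 CPM (-0.044, -0.31 to 0.22). Cxcl9, which the rule limits, is itself an interferon-gamma target, and with no limit on it the median was 1.00.

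Genes of type I interferon and of MHC class I had smaller ratios in the same direction. Of 24 type I interferon genes 6 were at least 1.5-fold higher, with a median of 0.30: Oas2, an antiviral RNA sensor, stood at 8.37 and 3.14 CPM, Zbp1, a sensor of nucleic acids, at 97.1 and 61.1, and Isg15, a ubiquitin-like modifier, at 293 and 235. Of 15 MHC class I genes none was 1.5-fold higher, but 13 had an interval above 0, at a median of 0.27. H2-K1, a class I heavy chain, stood at 1172 and 982 CPM and B2m at 2126 and 1895 CPM. 3 genes outside these lists were among the 10 genes named for the largest ratios and are known as induced by interferon or microbial products: Calhm6, a channel gene, stood at 37.8 and 14.9 CPM (1.34, 1.05 to 1.65), Acod1, the enzyme that makes itaconate, at 95.3 and 46.1 CPM (1.05, 0.87 to 1.22), and Ly6i at 55.1 and 26.5 CPM (1.06, 0.82 to 1.29).

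The promoters of Igtp, Calhm6 and Irf1 are shown because these genes were higher with anti-PD-1 and their windows hold a match to an interferon motif. Capitals mark the core of the interferon-stimulated response element, TTTCNNTTTC or GAAANNGAAA on the other strand, or the gamma-activated site, TTCNNNGAA, which reads the same on both strands. Each sequence is the 250 bases before the RefSeq start in GRCm38.p6, at chr11:58199306-58199555 (plus strand) for Igtp, chr10:34127973-34128222 (minus strand) for Calhm6 and chr11:53769764-53770013 (plus strand) for Irf1.
Igtp: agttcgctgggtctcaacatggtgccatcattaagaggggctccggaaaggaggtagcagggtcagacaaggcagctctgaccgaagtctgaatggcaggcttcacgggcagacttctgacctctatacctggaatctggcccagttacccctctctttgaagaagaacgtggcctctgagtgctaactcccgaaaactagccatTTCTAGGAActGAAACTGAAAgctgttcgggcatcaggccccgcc
Calhm6: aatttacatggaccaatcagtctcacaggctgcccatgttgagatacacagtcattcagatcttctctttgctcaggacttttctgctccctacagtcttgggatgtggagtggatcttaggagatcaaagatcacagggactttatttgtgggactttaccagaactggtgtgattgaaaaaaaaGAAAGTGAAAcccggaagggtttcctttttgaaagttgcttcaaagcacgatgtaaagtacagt
Irf1: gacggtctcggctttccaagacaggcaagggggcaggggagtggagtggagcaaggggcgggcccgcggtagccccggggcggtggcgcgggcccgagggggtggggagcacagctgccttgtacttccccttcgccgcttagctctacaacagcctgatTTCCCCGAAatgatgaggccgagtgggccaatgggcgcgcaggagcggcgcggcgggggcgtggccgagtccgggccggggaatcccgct
In Igtp the gamma-activated site lies 45 to 37 bases before the start and the response element 34 to 25, separated by a pair of bases. Calhm6 has the response element at 64 to 55 bases and Irf1 the gamma-activated site at 90 to 82.

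Over the interferon-gamma list, 16 of the 27 measured genes had a promoter entry, and 10 of these held the response element core and 8 the gamma-activated site. Of all 32851 windows 2.98% and 7.02% did. Of the 10 genes named as higher, 8 had an entry and 4 (Gbp2, Calhm6, Igtp and Gbp5) held the response element, while none of the 6 entries for the 10 genes named as lower held either. These genes are known interferon targets, and the matches are a description of the letters.

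Inflammatory genes were higher with anti-PD-1. Of 15 measured genes, 4 were at least 1.5-fold higher, none lower, and 11 had an interval above 0, at a median of 0.36. Tnf stood at 175 and 107 CPM (0.71, 0.59 to 0.83), Ptgs2, the inducible cyclooxygenase, at 884 and 563 CPM (0.65, 0.60 to 0.70) and Il6 at 117 and 76.2 CPM (0.62, 0.47 to 0.76). Il23a, the p19 chain of interleukin 23, stood at 26.5 and 9.64 CPM and was found in 7.09% and 3.90% of members. Il1b, one of the most frequent of them, was found in 93.4% and 94.3% of members, at 6286 and 5314 CPM (0.24, 0.22 to 0.26). Dusp2, an immediate early phosphatase of activated leukocytes, stood at 155 and 74.7 CPM (1.05, 0.92 to 1.19). Tissue digestion is known to induce early response genes: Fos stood at 550 and 435 CPM and Zfp36 at 1057 and 816 CPM, and Ier2, Dusp1 and Junb were higher as well, at 0.36, 0.30 and 0.25. The whole digestion and heat shock list of 17 genes had a median of 0.042 and went both ways, with 7 intervals above 0 and 7 below, the latter including Hspb1 (-0.54), Dnajb1 (-0.38) and Hsp90aa1 (-0.14). The part of digestion in the inflammatory ratios was not tested.

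Most classical monocyte genes were higher as well, with 3 of 10 at least 1.5-fold higher and 8 with an interval above 0. The median was 0.39. Fn1 was the 1 gene of the list below 0, at -0.12, found in 81.4% and 88.0% of members. Thinned to 3000 UMIs, it was found in 72.5% and 80.2%, a difference of -7.66 points (-11.8 to -3.58). Of the 10 genes, 3 had an interval of that difference above 0 and 1 below, with no share over all genes to set beside this. Ly6c2 stood at 246 and 112 CPM (1.13, 1.02 to 1.24) and was found in 28.1% and 18.5% of members. Chil3, a secreted chitinase-like protein of monocytes, stood at 187 and 112 CPM (0.74, 0.63 to 0.86) and Plac8 at 1182 and 763 CPM (0.63, 0.59 to 0.68). Ccr2 was near 0, at 0.060 (-0.025 to 0.14). Ly6a, an interferon-induced antigen of the same gene family as Ly6c2, stood at 257 and 132 CPM (0.97, 0.86 to 1.07). In members with no UMI of Ly6c2 the median of the interferon-gamma list was 0.57, and in members with one it was 0.31. Members with Ly6c2 had a ratio of the other sign for some genes, at -0.29 for Il6, -0.023 for Ccl4, -0.056 for Ccl2 and 0.32 for Tnfrsf9, and the type I interferon median there was 0.044. Thinned to 3000 UMIs, Ly6c2 was found in 20.1% and 11.9% of members, against 12.1% and 9.68% of B cells, whose median depths were 4447.5 and 3685.5 UMIs. The isotype share thus lay near the B cell share, and the level of Ly6c2 in members may include free RNA to an extent that was not measured. Whether the B cells made Ly6c2 themselves was not tested.

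The genes lower with anti-PD-1 were led by Mgl2, at 157 and 324 CPM, a ratio of -1.04 (-1.14 to -0.94), found in 30.3% and 46.7% of members. Thinned to 3000 UMIs, the shares were 20.7% and 33.0%, a difference of -12.3 points (-16.4 to -8.03), and 0 of 33 and 0 of 31 thinned B cells held it, which allows up to 9.09% and 9.68%. Ccl24, an eosinophil chemokine of alternatively activated macrophages, stood at 1109 and 1621 CPM (-0.55, -0.59 to -0.51), and Mmp12, the macrophage elastase, at 363 and 567 CPM (-0.64, -0.71 to -0.57). Both were found in fewer members after thinning, Ccl24 in 31.5% and 46.9% and Mmp12 in 31.5% and 41.6%. Mrc1 stood at 88.6 and 122 CPM (-0.47, -0.61 to -0.32), with 18.0% and 24.0% of thinned members. Arg1 stood at 1508 and 1813 CPM (-0.27, -0.30 to -0.23), with 56.3% and 66.7% of thinned members against 0 and 3.23% of B cells. In the tercile of members with the highest C1q share its ratio was 0.040. Ear2, a ribonuclease gene of eosinophils and macrophages with close paralogs, stood at 29.0 and 48.7 CPM, and Tnfrsf9, the costimulatory receptor 4-1BB, at 66.3 and 118 CPM.

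The suppressive and repair list as a whole did not share that direction, at a median of -0.0077 over 15 genes: besides Mmp12 as the 1 gene at least 1.5-fold lower, 2 were at least 1.5-fold higher. These were Il10, at 31.3 and 18.2 CPM (0.78, 0.48 to 1.07), and Chil3. Il10 was found in 6.46% and 5.24% of members only, and in those without Arg1 its ratio was -0.92. Vegfa, the angiogenic factor, stood at 432 and 400 CPM and Spp1 at 822 and 826. Of 8 scavenger genes, 3 had an interval below 0 and none above, at a median of -0.17. Pf4, too, was lower, at 244 and 327 CPM (-0.42, -0.51 to -0.34), although its thinned shares, 23.8% and 25.95%, differed by less than their counting interval (-6.25 to 2.06 points).

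**Figure D4:**
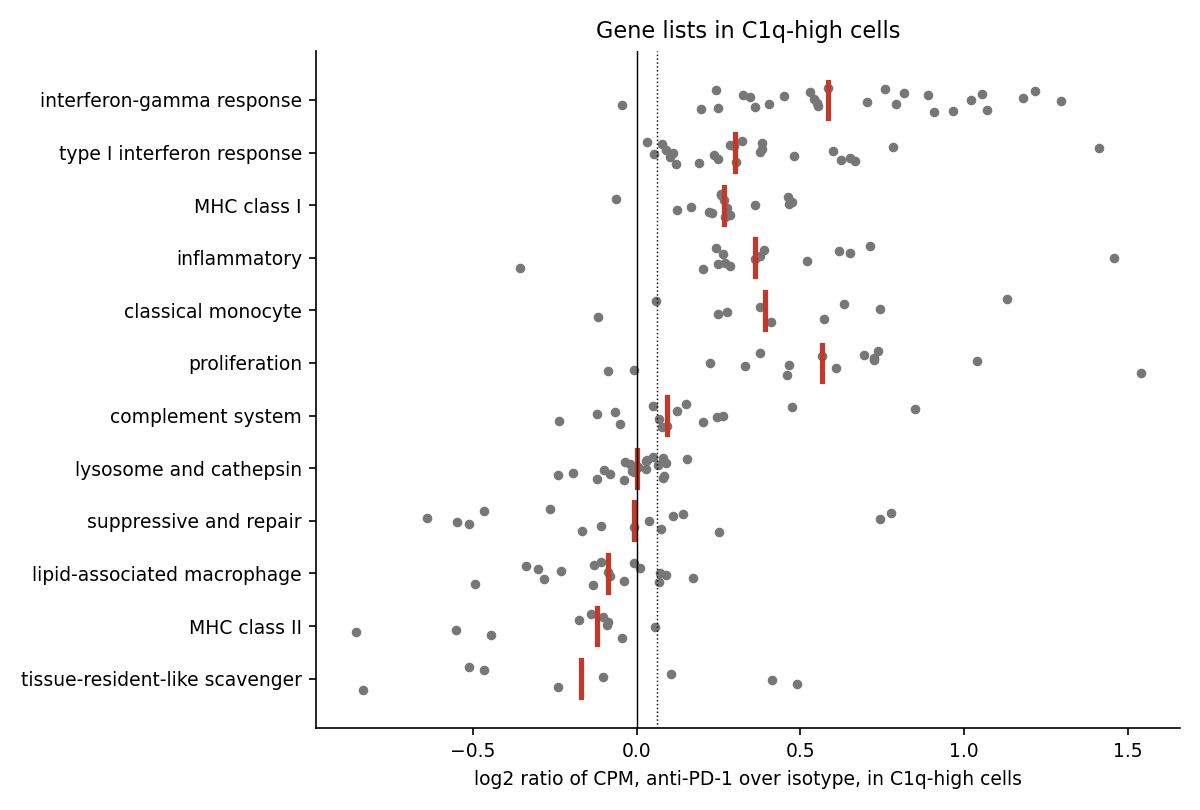
Log2 ratio of CPM, anti-PD-1 over isotype, in members (x axis) for the measured genes of 12 lists. Grey points are genes, red bars list medians, the dotted line the median of all measured genes. The interferon-gamma median stands at 0.58, and those of MHC class II and the scavenger genes at -0.12 and -0.17.

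Antigen presentation split by class. While MHC class I genes were higher, 7 of 10 MHC class II genes had an interval below 0 and none above, at a median of -0.12. The differences were small for the abundant genes, with H2-Aa at 4669 and 5142 CPM, Cd74, the invariant chain, at 13638 and 14496, and H2-Eb1 at 3626 and 4101. H2-DMb2, a chain of the peptide-loading chaperone, stood at 39.9 and 58.5 CPM. This direction depended on the Cxcl9 limit: with all C1q-high cells the median was 0.032. In C1q-high cells with Cxcl9 the class II median was 0.070, in C1q-low cells 0.035 and in C1q-low cells with Ly6c2 0.34.

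Complement genes other than C1q stood close in both libraries, at a median of 0.094 over 15 genes. Cfb, factor B of the alternative pathway and an interferon-induced gene, was the 1 gene at least 1.5-fold higher, at 42.6 and 23.6 CPM (0.85, 0.60 to 1.11). C3, the central component, stood at 46.5 and 44.9 CPM in members, below the 138 and 137 CPM of C1q-low cells. The receptors C5ar1 and C3ar1 stood at 192 and 160 CPM and at 93.6 and 102 CPM. The proteases C1ra and C1s1, which join C1q in the C1 complex, had 35 and 42 UMIs and 1 and 1 UMI over all members.

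Among ligands of T cell checkpoints, Cd274, which encodes PD-L1, stood at 194 and 151 CPM (0.36, 0.25 to 0.47), found in 35.8% and 33.6% of thinned members and in 21.2% and 16.1% of B cells. Pdcd1lg2, which encodes PD-L2, stood at 15.1 and 20.5 CPM (-0.45, -0.80 to -0.10), and Tnfsf9, the ligand of 4-1BB, at 155 and 98.5 CPM (0.65, 0.53 to 0.78). Of 11 such genes 1 was at least 1.5-fold higher and none lower, at a median of 0.16. The chemokine list of 19 genes had 1 gene at least 1.5-fold higher and 3 lower. Ccl4, a chemokine that attracts T cells and monocytes, stood at 1790.02 and 1281 CPM (0.48, 0.45 to 0.52), and Ccl2 at 1134 and 902. The 3 lower ones, Ccl17, Ccl22 and Ccl8, were found in at most 4.24% of members.

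Several programmes differed little in size. Over all genes the counting interval lay above 0 for 14.9% and below 0 for 5.86%. The lysosome list had a median of 0.0017 over 22 genes with none past 1.5-fold in either direction, 6 intervals above 0 and none below. Psap, prosaposin, stood at 3121 and 3143 CPM. The lipid-associated list had a median of -0.089 over 17 genes, also with none past 1.5-fold, but 5 intervals lay below 0 and 2 above. Of its genes, 12 had a ratio below 0 and 5 above. Trem2, a lipid receptor, stood at 143 and 154 CPM and Lgals3, galectin 3, at 1845 and 1962, while Fabp5, a fatty acid carrier, stood at 336 and 425. The hypoxia list had a median of -0.081 over 18 genes and went both ways, with 7 intervals below 0 and 6 above. Bnip3, a mitophagy receptor, stood at 174 and 227 CPM. Of the receptors and bridges for apoptotic cells, Mertk stood at 16.9 and 17.0 CPM, Axl at 134 and 157, and Mfge8, which links phosphatidylserine to integrins, at 12.7 and 20.2. Cell cycle genes were higher at a median of 0.56 over 15 genes, 7 of them at least 1.5-fold, but from few cells. After thinning, 4 of the 17 genes listed had an interval of the difference in share above 0 and none below: Pclaf, found in 2.85% and 0.559% of members, Birc5 in 4.02% and 1.68%, Stmn1 in 6.74% and 4.36%, and Ccnb2 in 2.85% and 1.34%. Thinned shares were taken for listed and named genes only, so no share over all genes stands beside this count, and nothing is concluded from it. Mki67 was found in 3.50% and 3.47%. B cells, which may cycle themselves, held Pclaf in 9.09% and 6.45%. In the middle tercile of the C1q share the cell cycle median was -0.034.

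The same contrast was computed in all filter-passing cells that were not members, for values side by side. Within each library, members and other cells were sorted and sequenced together. The difference between members and other cells was not tested. Acod1 stood at 1.05 in members and 0.16 in other cells, Ly6c2 at 1.13 and 0.35, Dusp2 at 1.05 and 0.39, Tnf at 0.71 and 0.24, and Ptgs2 at 0.65 and 0.24. Gbp2 stood at 1.22 and 0.99, Igtp at 1.18 and 0.89, and Ly6a at 0.97 and 0.99, so these interferon-induced genes were higher in other cells too. Mgl2 stood at -1.04 in members and -0.65 in other cells, Ccl24 at -0.55 and -0.76, and Arg1 at -0.27 and -0.44. For 12 of the 20 genes named by their ratio, the value in other cells lay inside the counting interval of members. Besides Igtp and Ly6a these were Calhm6, Ly6i, Gbp5, Ear2, Mt2, Brd1 and 4 nuclear genes named for mitochondrial proteins. Ly6i was at 1.06 and 1.07, and Mt2, a metallothionein, at -0.65 and -0.63. Brd1, a chromatin reader, was at 0.99 and 1.09. The 4 nuclear genes Ndufa3, Ndufb1-ps, Tomm7 and Atp5mpl were at -0.51 and -0.48, -0.48 and -0.50, -0.48 and -0.47, and -0.44 and -0.45.

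**Figure D5:**
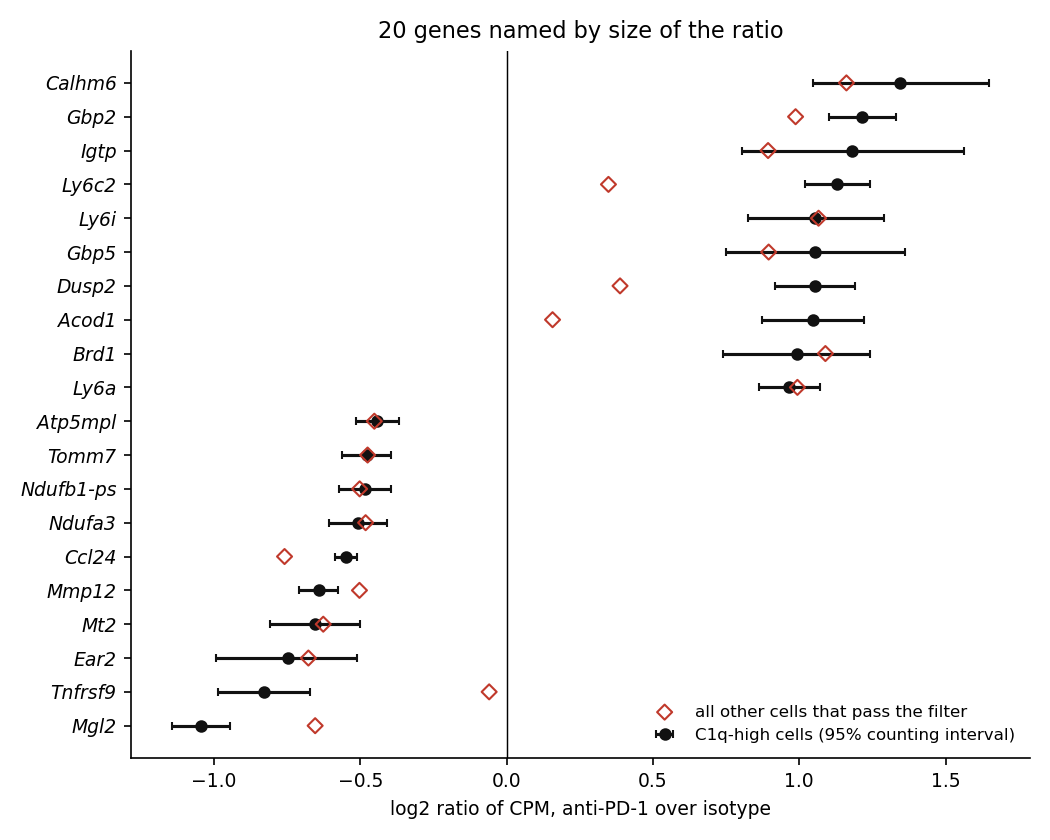
Log2 ratio of CPM, anti-PD-1 over isotype (x axis), for the 10 higher and 10 lower genes named by whichever interval bound lay closest to 0. Black points are members with 95% counting intervals, red diamonds all other filter-passing cells. For Ly6i, Ly6a, Mt2 and the 4 nuclear genes of mitochondrial proteins from Ndufa3 to Atp5mpl the points lie close together, and Acod1, Ly6c2 and Dusp2 stand further from 0 in members.

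The median ratio of the interferon-gamma list was 0.58 in members, 0.77 in C1q-high cells with Cxcl9, 0.73 in C1q-low cells and 0.73 in C1q-low cells with Ly6c2. For the inflammatory list the medians were 0.36, 0.44, 0.18 and 0.33. The cell cycle list stood at 0.56 and 0.35 in the C1q-high sets and at -0.28 and -0.54 in the C1q-low sets. The C1q-low sets also held neutrophil transcripts. The neutrophil list summed to 10439 and 18848 CPM in C1q-low cells and to 15156 and 32423 CPM in those with Ly6c2. The part of these transcripts in the cell cycle values was not tested. Because these sets share libraries and the rule splits them by measured genes, the values are given side by side with no test.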

How the data were processed

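Each library was deposited as 1 matrix of raw UMI counts for called cells, without normalization. Per the file headers the counts came from Cell Ranger 5.0.1; the submitters' processing notes give version 2.1.1 and the build mm10. The sources used here do not say how cells were called.

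Members were found by the rule on counts. The members, gene lists and comparisons were chosen with earlier results of these data known. Member UMIs were summed per library and scaled to 1000000 (CPM). Log2 ratios carry exact conditional binomial 95% intervals, checked on simulated data, and a count of 0 was set to 3. Genes needed 50 UMIs over both libraries. With 1 library per group nothing was tested, and calls are sizes of at least 1.5-fold. Named genes are list members, the 10 highest and 10 lowest ratios by the bound nearest to 0 (at least 20 CPM in the higher library, no gene with over 20% of its UMIs in 1 cell), and the 15 largest folds over C1q-low cells (at least 20 CPM in members of both libraries). Mitochondrially encoded, ribosomal, haemoglobin, Xist, Tsix, Y-linked, receptor segment and unnamed genes were left out of the ranked names. Genes of the rule are not among the 15 named by fold over C1q-low cells. Of 430 list genes, 2 were not matched to a feature. Doublets were scored with scrublet in scanpy 1.11.5 (Python 3.11.15, scipy 1.17.1) and kept. TMM factors came from edgeR 4.0.16 in R 4.3.3. B cells with little or no Lyz2 were used as the measure of free RNA, which may read it too low. Promoter windows came from RefSeq on GRCm38.p6, and positions of 449 genes from GENCODE on the same build. The alternatives numbered 21, and 4 more were added after the data were seen.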

Additional observations from a re-analysis of the deposited data

How the results depend on the processing

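Each result was recomputed under up to 25 alternatives. With no limit on Cxcl9 the share difference was -0.110 points, the interferon-gamma median 1.00, the suppressive and repair median -0.19, and the MHC class II median turned to 0.032, as did Cd74 to 0.0030 and Pdcd1lg2 to 0.058. In cells of 5000 to 20000 UMIs the share difference was -3.92 points. The MHC class II median was -0.20 without cells with other lineage markers, -0.18 under TMM, -0.18 under median of ratios and -0.18 in members without Arg1. The suppressive and repair median was -0.070 under TMM and -0.069 under median of ratios. At minimums of 10 and 200 UMIs, 789 and 74 genes were at least 1.5-fold higher, and 622 and 25 lower, since another number of genes enters. In the highest tercile of the C1q share the lipid-associated median was 0.051 and Arg1 0.040, and in the middle tercile the cell cycle median was -0.034 and Lgals3 0.033. In alternatives added after the data were seen, members with Ly6c2 had a type I interferon median of 0.044, a suppressive and repair median of -0.091, and turned ratios for Tnfrsf9 (0.32), Ccl2 (-0.056), Ccl4 (-0.023), Il6 (-0.29) and Lgals3 (0.11), and members without Arg1 had Il10 at -0.92. The causes were not tested. Of the values of single genes and other lists under alternatives, 1522 stayed within their counting interval, 482 moved in size and 11 turned.

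No paired analysis was possible because each antibody has 1 library. Libraries cannot be left out for the same reason, so mice, batch and antibody cannot be told apart, and depth limits genes found in few members, such as those of the cell cycle.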
